A study of Mus musculus with 6 samples.

Results

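The interferon regulatory factors are a family of transcription factors, and 8 of them (Irf1, Irf2, Irf3, Irf4, Irf5, Irf7, Irf8 and Irf9) were measured here in RAW 264.7, a mouse macrophage cell line. They were chosen by gene symbol from the array's annotation, 1 probe per gene, and make up 8 of 10698 genes with a symbol. The choice was made with earlier results of these data known. The cells had been cultured for 48 h with lipopolysaccharide (LPS, 100 ng/ml), a component of the outer membrane of Gram-negative bacteria, plus LPS-binding protein (LBP, 100 pM), or for 48 h untreated. Treated and untreated RNA were hybridised together on 6 two-colour arrays in 3 numbered sets, each set with 1 array that had the treated RNA in Cy5 (red) and 1 that had it in Cy3 (green). The design asks which transcripts differ between treated and untreated cells. The model is a single cell line. Whether the 3 sets are separate cultures is not stated in the labels. A p-value here therefore reflects only spread from set to set, of the probe itself and of all probes tested. That spread may be technical.

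Every member of the family binds DNA through a related domain at the amino end, which reads GAAA-type repeats in the promoters of interferon-stimulated genes. Irf3, Irf5 and Irf7 are switched on by phosphorylation downstream of Toll-like and nucleic acid receptors, and Irf3 and Irf7 then turn on the type I interferon genes. Secreted interferon signals through STAT proteins, and STAT2 joins Irf9 in a complex named ISGF3. Irf1 is an activator induced by interferons and inflammatory stimuli, Irf2 is its classical competitor, and Irf4 and Irf8 act with partner factors such as PU.1 in immune cell development.

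The promoter sequences of the 3 members with a motif match (Irf1, Irf8 and Irf2) and of Irf7, the member with the largest ratio, are shown so that the matches, or their absence, can be read beside the ratios. They cover the 250 bases before the first RefSeq transcription start in the GRCm38.p6 assembly, written 5′ to 3′ on the gene's strand, and capitals mark motif matches.
Irf7 promoter, chr7:141266425-141266674, minus strand: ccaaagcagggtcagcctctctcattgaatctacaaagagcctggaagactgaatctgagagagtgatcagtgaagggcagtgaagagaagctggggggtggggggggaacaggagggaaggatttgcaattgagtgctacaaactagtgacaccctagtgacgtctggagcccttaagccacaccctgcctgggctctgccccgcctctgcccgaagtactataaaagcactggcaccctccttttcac
Irf1 promoter, chr11:53769764-53770013, plus strand: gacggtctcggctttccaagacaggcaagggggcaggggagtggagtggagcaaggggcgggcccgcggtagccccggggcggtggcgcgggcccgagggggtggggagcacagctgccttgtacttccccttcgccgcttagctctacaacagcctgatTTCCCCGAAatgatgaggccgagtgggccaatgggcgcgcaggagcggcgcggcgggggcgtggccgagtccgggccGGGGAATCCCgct
Irf8 promoter, chr8:120736108-120736357, plus strand: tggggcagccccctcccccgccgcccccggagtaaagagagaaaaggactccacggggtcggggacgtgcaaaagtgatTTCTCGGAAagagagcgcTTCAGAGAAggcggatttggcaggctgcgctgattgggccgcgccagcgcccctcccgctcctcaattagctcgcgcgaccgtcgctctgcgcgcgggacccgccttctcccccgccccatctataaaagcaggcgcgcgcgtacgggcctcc
Irf2 promoter, chr8:46739495-46739744, plus strand: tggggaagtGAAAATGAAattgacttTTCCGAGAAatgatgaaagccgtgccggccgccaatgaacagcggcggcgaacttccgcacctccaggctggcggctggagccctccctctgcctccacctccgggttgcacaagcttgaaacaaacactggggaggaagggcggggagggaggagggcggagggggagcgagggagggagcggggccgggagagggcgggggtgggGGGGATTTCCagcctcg

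Motifs were searched on both strands as GAAANNGAA (the core of the interferon-stimulated response element), TTCNNNGAA (GAS, the STAT-type element) and the NF-kB consensus. All 8 members matched the RefSeq table, with 11 starts in all. At the first starts, GAS was present in 3 members, the NF-kB consensus in 2 and the response element core in 1. The Irf1 promoter held TTCCCCGAA at bases 90 to 82 before the start and an NF-kB match at bases 13 to 4. The Irf8 promoter held TTCTCGGAA at bases 171 to 163 and TTCAGAGAA at bases 153 to 145. The Irf2 promoter held all 3 motifs, with GAAAATGAA at bases 241 to 233, TTCCGAGAA at bases 224 to 216 and an NF-kB match at bases 17 to 8. No match of one motif overlapped another. Irf7, Irf9, Irf3, Irf4 and Irf5 had none of these letters in the window. Among 32851 mouse promoter windows of the same length, 7.13% held the response element core, 7.02% GAS and 7.25% the NF-kB consensus. A match describes letters in these windows, and binding was not measured.

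After 48 h of LPS and LBP, 4 of the 8 members were higher in treated cells, 0 were lower, and 4 did not pass the test. Irf7 rose 7.10-fold, Irf9 1.97-fold, Irf1 1.62-fold and Irf8 1.51-fold, each on all 6 arrays, whereas Irf5, Irf2, Irf4 and Irf3 did not pass. Over all 12724 probes tested, 14.8% were called higher and 12.2% lower. As the family was chosen with earlier results known, its share beside these is partly an input. Called or not, 16.1% of them were higher on all 6 arrays and 14.1% were lower on all 6. A call means an adjusted p under 0.05 in limma, which set the 3 set means (the 2 dye orientations averaged) against 0, with Benjamini-Hochberg adjustment over those probes. This test is moderated, which draws the variance of each probe toward that of all probes (prior degrees of freedom 6.33). It therefore does not rest on the 3 set means of that probe alone. The 0 lower members also stood at 0 when an unadjusted p under 0.05 was used. Over genes in place of probes, 15.0% of 9160 were called higher and 12.8% lower, and the same 4 members were called. Values below are log2 ratios of treated over untreated, ± SD of the 3 set means (n = 3). The base of the logarithm is taken as 2 and is not given in the sources used here, so fold changes would be larger if it were natural. A ratio gives no expression level, and less RNA per cell and fewer cells of a type cannot be told apart in these bulk samples.

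**Figure D1:**
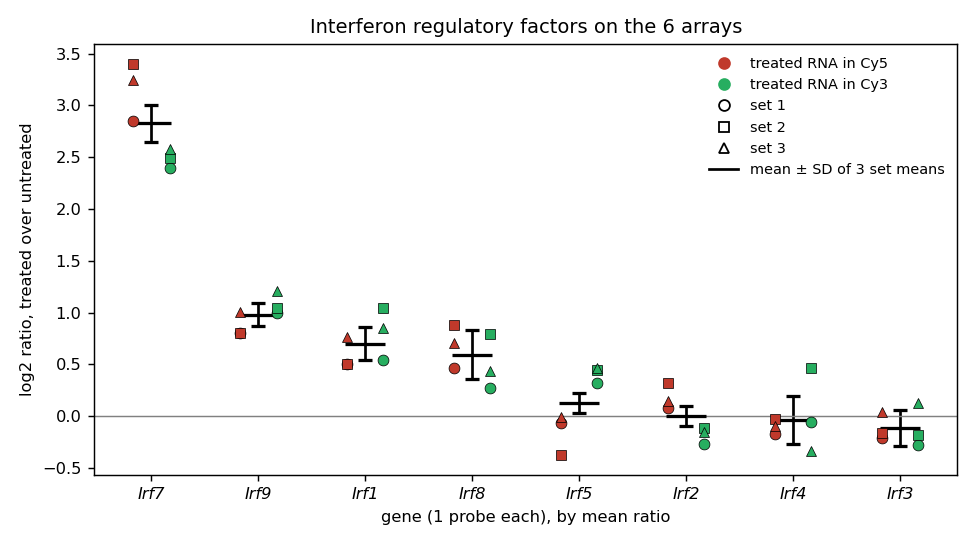
Log2 ratio of treated over untreated cells (y axis) for each interferon regulatory factor (x axis) on the 6 arrays, red for treated RNA in Cy5 and green for Cy3, with a symbol per set. Bars show the mean ± SD of the 3 set means. Irf7 lies between 2.40 and 3.40, Irf9, Irf1 and Irf8 lie above 0 on every array, and the other 4 scatter around 0.

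Irf7, the interferon-inducing factor that is itself a well-known interferon-stimulated gene, had the largest ratio of the family. In the Cy5 orientation (treated RNA in Cy5) it read 2.85, 3.40 and 3.25 in sets 1, 2 and 3, and in the Cy3 orientation it read 2.40, 2.49 and 2.58. All 6 values were far above 0, and the 3 of the Cy5 orientation all lay above the 3 of the Cy3 orientation. The mean was 2.83 ± 0.18 (limma, adjusted p = 4.47e-07, 95% interval 2.60 to 3.05), and only 0.417% of the probes tested had a higher mean. Irf3, which shares the interferon-inducing role and is present in cells as a latent protein, read -0.21, -0.16 and 0.04 in the Cy5 orientation and -0.28, -0.19 and 0.12 in the Cy3 orientation. Sets 1 and 2 were below 0 and set 3 above it in both orientations. The mean of Irf3 was -0.11 ± 0.17 and did not pass (limma, adjusted p = 0.436, 95% interval -0.33 to 0.11). It was -0.21 without set 3 and -0.046 without set 1. The ratio of Irf7 exceeded that of Irf3 by 2.87, 3.12 and 2.83 in the 3 sets, a difference of 2.94 ± 0.16 on the log2 scale. An exact test over 3 sets cannot give a two-sided p below 0.25, so no p is given for differences between members.

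Irf9, the DNA-binding part of ISGF3, rose by 0.98 ± 0.11 (limma, adjusted p = 1.16e-04, 95% interval 0.77 to 1.18). Its arrays read 0.80, 0.81 and 1.01 in the Cy5 orientation and 1.00, 1.05 and 1.21 in the Cy3 orientation. All 6 were high and close together. Its ISGF3 partner Stat2 rose by 1.57 ± 0.11 (limma, adjusted p = 9.30e-06).

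Irf1, the activator of antigen-processing and guanylate-binding protein genes, rose by 0.70 ± 0.16 (limma, adjusted p = 9.80e-04, 95% interval 0.48 to 0.92). It read 0.50, 0.50 and 0.77 in the Cy5 orientation and 0.54, 1.05 and 0.85 in the Cy3 orientation, above 0 throughout and lowest in set 1 when the orientations were averaged (0.52). Irf2, its competitor, read 0.08, 0.32 and 0.15 in the Cy5 orientation but -0.27, -0.12 and -0.15 in the Cy3 orientation. The sign of Irf2 thus followed the dye on every array, and the orientations averaged to 0.00 ± 0.10 (limma, adjusted p = 1.00, 95% interval -0.20 to 0.20). Irf1 exceeded Irf2 by 0.70 ± 0.10, in all 3 sets.

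Irf8, which directs monocyte and dendritic cell development, rose by 0.59 ± 0.24 (limma, adjusted p = 0.00438, 95% interval 0.35 to 0.84). It read 0.46, 0.88 and 0.71 in the Cy5 orientation and 0.27, 0.80 and 0.44 in the Cy3 orientation, with set 2 highest and set 1 lowest in both. This call ended when ratios listed as exactly 0 were kept as values (limma, adjusted p = 0.0921 over probes and 0.0557 over genes). The ratio of Irf8 itself, which held no such value, stayed at 0.59, and the fit then took in 16281 probes. Its close relative Irf4, known from lymphocytes and alternatively activated macrophages, read -0.18, -0.03 and -0.09 in the Cy5 orientation and -0.06, 0.47 and -0.34 in the Cy3 orientation. The last 2 of these are the widest gap between any arrays of 1 orientation among the 4 members that did not pass. The mean of Irf4 was -0.04 ± 0.23 (limma, adjusted p = 0.831, 95% interval -0.28 to 0.20). Irf8 exceeded Irf4 by 0.63 ± 0.15, in all 3 sets.

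Irf5, a driver of inflammatory cytokine genes, read -0.06, -0.38 and -0.01 in the Cy5 orientation and 0.32, 0.44 and 0.47 in the Cy3 orientation. The 2 orientations did not overlap and had opposite signs. Their average was 0.13 ± 0.10 and did not pass (limma, adjusted p = 0.318, 95% interval -0.07 to 0.33).

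**Figure D2:**
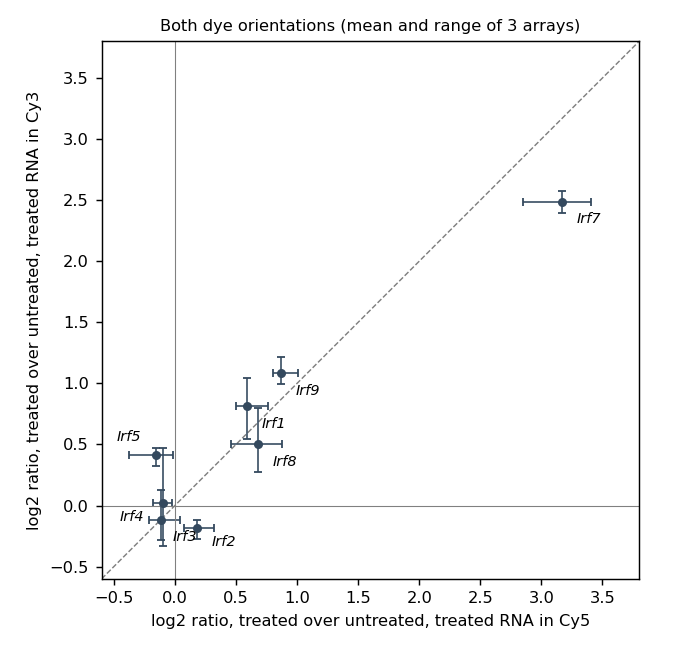
Mean log2 ratio of treated over untreated with treated RNA in Cy5 (x axis) and in Cy3 (y axis) for each member, with bars for the range of the 3 arrays. The dashed line marks equal values. Irf7, Irf9, Irf1 and Irf8 lie in the upper right, whereas Irf5 (-0.15 and 0.41) and Irf2 (0.18 and -0.18) have opposite signs on the axes.

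In order of mean ratio, the family ran Irf7, Irf9, Irf1, Irf8, Irf5, Irf2, Irf4 and Irf3. Irf7 stood 1.85 ± 0.15 above Irf9, and Irf9 stood 0.28 ± 0.12 above Irf1, each in all 3 sets and with SD ranges that did not overlap. Irf1 and Irf8 differed by 0.11 ± 0.15, within their spread. Irf8 stood 0.46 ± 0.30 above Irf5 in all 3 sets once the orientations were averaged. In the Cy3 orientation, however, Irf5 read higher than Irf8 in set 1 (0.32 against 0.27) and set 3 (0.47 against 0.44). Irf5, Irf2, Irf4 and Irf3 could not be ordered, since each neighbouring pair had overlapping SD ranges. The median of the 8 ratios was 0.36, beside -0.01 over all probes tested. Of those probes, 5.40% had a higher mean than Irf1, 6.75% a higher mean than Irf8 and 3.21% a higher mean than Irf9.

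**Figure D3:**
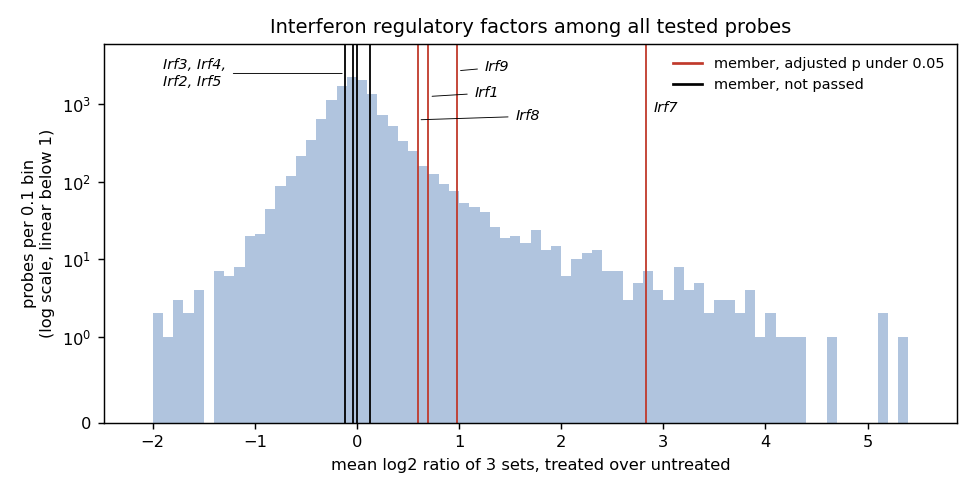
Distribution of the mean log2 ratio (x axis) of the 12724 probes tested, in bins of 0.1 (y axis, log scale, linear below 1), with a vertical line for each interferon regulatory factor. Red lines mark Irf8, Irf1, Irf9 and Irf7, which passed; black lines mark Irf3, Irf4, Irf2 and Irf5, which lie in the central peak.

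Genes with ratios nearest to each member were found by the root mean square (RMS) difference over the 6 arrays. The ratios were not centred for this, so a similar mean ratio counts as likeness. Nearest to Irf7 were Oasl2, of the oligoadenylate synthetase family, at an RMS difference of 0.22, the chemokine Cxcl11 at 0.27 and the receptor kinase Axl at 0.30. Nearest to Irf9 were Qpctl (0.11), Ogfr (0.13) and the MHC class I gene H2-Q5 (0.13). Nearest to Irf1 were the immunoproteasome subunit Psmb10 (0.10), Antxr2 (0.12) and the phosphatase Ptpn5 (0.12), and nearest to Irf8 were the lysosomal protease Ctss (0.096), Lima1 (0.11) and Dock8 (0.11). For the members near 0 the nearest genes were Xdh, Atp2b1 and Gpr35 (Irf5), Insm1, Tacr1 and Mettl7b (Irf2), Zfp672, Mup2 and Slc35g3 (Irf4) and Erp29, Epm2a and Hdac3 (Irf3), at 0.035 to 0.083. These are likenesses of ratios across 6 arrays that share cells and dyes.

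Around the family, 98 of 138 listed pathway genes could be tested, and 60 rose and 4 fell (61.2% and 4.08%, against 15.0% and 12.8% of all genes). The median ratio of all genes tested was -0.01. Of these 64 calls, 50 held under each alternative tried. The lists were chosen with earlier results of these data known, so their shares beside those of all genes are partly an input. Il1b, Il6, Tnf and Nos2, which had served to check the direction of the ratio, are among the genes that rose. A ratio of 1 gene is the mean of its probes that had a value on all 6 arrays, and the lists were tested gene by gene, with no test of a list as a whole.

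The genes that activate Irf3, Irf5 and Irf7 moved in both directions. Of 22 listed sensors, adaptors and kinases, 12 were tested, and 6 rose and 2 fell, with a median of 0.22. The highest were the nucleic acid sensor Zbp1 at 2.96 ± 0.46, the RNA sensor Ifih1 at 2.42 ± 0.15 and the double-stranded RNA receptor Tlr3 at 1.81 ± 0.45. The kinases that phosphorylate Irf3 and Irf7 were called higher, Ikbke by 0.69 ± 0.07 and Tbk1 by 0.36 ± 0.06. The 2 probes of Ikbke disagreed, at 1.49 and -0.11, and those of Tbk1 gave 0.37 and 0.34. The call of Tbk1 was lost without set 1, without set 3 or without the Cy3 array of set 2. The lowest were the LPS receptor Tlr4 at -0.68 ± 0.14 and the kinase Irak1 at -0.40 ± 0.13, which fell, and the adaptor Tirap at -0.18 ± 0.09, which did not pass. The call of Irak1 was lost without set 3.

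**Figure D4:**
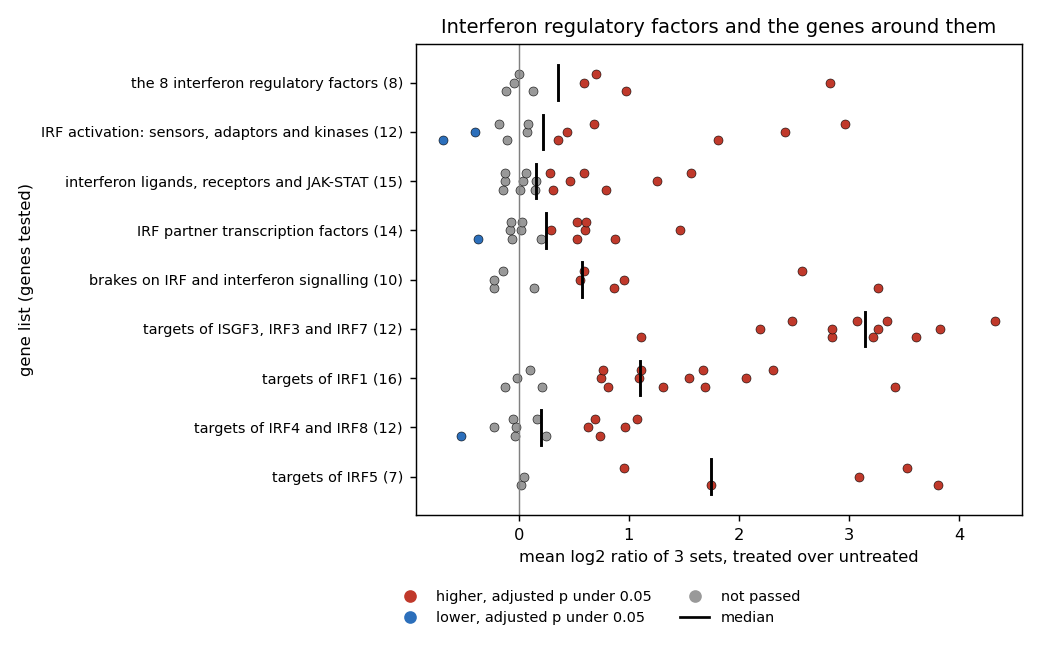
Mean log2 ratio of treated over untreated (x axis) for the family and each list of genes around it (y axis, number tested in brackets), 1 point per gene, red for higher, blue for lower, grey for not passed, with a black bar at the median. The targets of ISGF3, Irf3 and Irf7 lie furthest to the right, between 1.12 and 4.33.

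Of 17 interferon ligands, receptors and JAK-STAT genes, 15 were tested, and 7 rose and 0 fell (limma, 0 lower at an unadjusted p under 0.05 as well), with a median of 0.16. Without the Cy3 array of set 2, 4 rose. The calls of the kinase Jak1 (0.28 ± 0.055) and the receptor chain Ifnar2 (0.31 ± 0.14) held in 7 and 8 of 15 alternatives. Stat2 was highest, followed by the kinase Jak2 at 1.26 ± 0.15 and Stat3 at 0.79 ± 0.14. Ifnb1, the interferon beta gene that Irf3 and Irf7 control, was called higher by 0.59 ± 0.25 (limma, adjusted p = 0.00532), a call that was lost with zeros kept and without the Cy3 array of set 2. The lowest were Ifna5 at -0.14 ± 0.22, Ifna4 at -0.12 ± 0.23 and the receptor chain Ifngr1 at -0.12 ± 0.11, none of which passed.

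Among 14 partner transcription factors tested of 18, 7 rose and 1 fell, with a median of 0.25. With zeros kept, 4 rose. Batf, which pairs with Irf4 and Irf8 on composite elements, rose by 1.47 ± 0.11, the PU.1 relative Spib by 0.87 ± 0.31 and Junb by 0.61 ± 0.14. Spi1, which encodes PU.1, was at 0.03 ± 0.06 and did not pass. The lowest were the lymphoid factor Ikzf1, which fell by 0.37 on the log2 scale (SD 0.11; call lost without set 3, without the Cy5 array of set 2 or without the Cy3 array of set 3), then Tcf3 at -0.07 ± 0.13 and Jun at -0.07 ± 0.13, which did not pass.

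Of 16 brakes on Irf and interferon signalling, 10 were tested, and 6 rose and 0 fell (limma, 0 lower at an unadjusted p under 0.05), with a median of 0.57. Trim30a rose by 3.27 ± 0.21, the ISG15 protease Usp18, which dampens interferon receptor signalling, by 2.57 ± 0.15 and the ubiquitin ligase Trim21 by 0.96 ± 0.51. The call of Trim21 was lost with zeros kept. Otud5 at -0.22 ± 0.27, Socs3 at -0.22 ± 0.25 and Rbck1 at -0.15 ± 0.08 were lowest and did not pass.

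Known targets of ISGF3, Irf3 and Irf7 rose in 12 of 12 tested cases (of 20 listed), with a median of 3.14 and a range from 1.12 to 4.33. The antiviral gene Rsad2 was highest at 4.33 ± 0.21, then the ubiquitin-like Isg15 at 3.83 ± 0.17 and the antiviral GTPase Mx1 at 3.61 ± 0.46. Eif2ak2, which encodes the kinase PKR, at 1.12 ± 0.27, the chemokine Cxcl10 at 2.19 ± 0.29 and Mx2 at 2.49 ± 0.39 were the lowest. The call of Eif2ak2 was lost with zeros kept. The mean ratio of Irf7 (2.83) lay inside the range of this list and those of Irf9, Irf1 and Irf8 lay below it. The SD range of Eif2ak2, which sets the lower end, overlapped those of Irf9 (0.98 ± 0.11) and Irf1 (0.70 ± 0.16).

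Targets of Irf1 rose in 12 of 16 cases and fell in 0 (limma, 0 lower at an unadjusted p under 0.05), with a median of 1.10. The GTPase Gbp3 rose by 3.42 ± 0.40 (probes at 4.68 and 2.15), Gbp2 by 2.31 ± 0.34 and the cyclooxygenase Ptgs2 by 2.06 ± 0.20. Casp1 was called higher at 1.31 ± 1.28, with set means of 2.78, 0.59 and 0.55 and a call lost with zeros kept, with arrays scaled to 1 spread and without any 1 array of the Cy3 orientation. The class II transactivator Ciita at -0.12 ± 0.25, the adhesion molecule Vcam1 at -0.01 ± 0.32 and Gbp4 at 0.10 ± 0.16 did not pass. Targets of Irf4 and Irf8 were mixed, with 5 of 12 higher, 1 lower (limma, 2 lower at an unadjusted p under 0.05) and a median of 0.21. Fabp5, called higher at 0.69 ± 0.17, had 2 probes that disagreed, at 1.49 and -0.10. The cytokine Il18 rose by 1.07 ± 0.09, the nuclear body gene Pml by 0.96 ± 0.31 and the oxidase subunit Cybb by 0.74 ± 0.23. The growth factor receptor Csf1r fell by 0.53 (SD 0.22; call lost with zeros kept), and Cst3 at -0.22 ± 0.10 and Klf4 at -0.05 ± 0.33 did not pass.

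Targets of Irf5 rose in 5 of 7 cases and fell in 0 (limma, 0 lower at an unadjusted p under 0.05), with a median of 1.74. The cytokines Il6 (3.81 ± 0.62) and Il1b (3.53 ± 0.30) and the chemokine Cxcl2 (3.09 ± 0.46) were highest. Il23a at 0.02 ± 0.14 and Il12a at 0.05 ± 0.02 did not pass, and Tnf rose by 0.96 ± 0.18. Il1b, Il6, Tnf and Nos2 (1.11 ± 0.18), textbook LPS-induced genes, had also served to check the direction of the ratio and were higher on all 6 arrays, so their direction is partly an input.

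Of 10 macrophage markers tested, 3 rose and 2 fell, with ratios from -1.71 (the IgG receptor Fcgr3) to 1.96 (Fcgr1) and Cd68 at 0.02 ± 0.06. Of 13 marker genes for other kinds of cell, 2 rose (15.4%) and 0 fell (limma, 0 lower at an unadjusted p under 0.05). Over all genes tested, 15.0% were called higher and 12.8% lower. The 2 markers of other cells that rose were the fibroblast proteoglycan Dcn (2.68 ± 0.95) and the B cell receptor component Cd79a (0.63 ± 0.11). The other 11 lay between -0.11 and 0.09. Ratios do not show whether a marker is present, and the part of these changes in the ratios of the family was not tested.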

How the data were processed

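The authors deposited 1 log2 ratio per probe and array (Cy5 over Cy3, per the labels' channel descriptions; base taken as 2). How background and dye bias were corrected, and which spots were filtered, is not given in the sources used here. Each array had a median of 0, and 7.97% to 17.8% of values were exactly 0 and were set to missing as probable placeholders. None of the 8 member probes had such a value. Ratios of the 3 arrays whose treated sample carried Cy3 were multiplied by -1. Arrays of one orientation correlated at 0.67 to 0.77 before turning, and arrays of opposite orientation at -0.66 to -0.41. The 2 arrays of a set were averaged, and 3 set means were tested against 0 with limma 3.58.1 in R 4.3.3, over 12724 probes, or 9160 genes, with a value on all 6 arrays. Depth does not apply to arrays, and their number limits the precision. The procedure was run on simulated data with 200 changed probes, as a check that calls take the right sign. Noise there was independent between arrays, with no effect shared by a set. It therefore does not measure the error rate in these data. Symbols came from the platform annotation (13738 of 16281 probes with 1 symbol, 52 with several, 2491 with none), and promoters from RefSeq (GRCm38.p6). All value columns were mapped to a sample.

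The members and lists were chosen with earlier results of these data known. Genes named were all members, the 3 highest and 3 lowest of each pathway list, pathway genes that fell, the 3 nearest genes to each member and the direction checks. Tbk1, Ikbke, Ifnb1, Jak1, Ifnar2, Spi1, Casp1, Fabp5, Cd68, Fcgr1, Fcgr3, Dcn and Cd79a were singled out after their values were seen. A planned comparison of protein sequences was not run. Alternatives changed the treatment of zeros, the set averaging, centring, scaling and the arrays included. A test of the dye effect was added after seeing the data.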

Additional observations from a re-analysis of the deposited data

Results flagged for a closer look

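Irf5 and Irf2 had opposite signs in the 2 dye orientations on all arrays. Their dye effect, the mean deposited ratio of Cy5 over Cy3 regardless of treatment, was -0.28 ± 0.11 for Irf5 and 0.18 ± 0.03 for Irf2 (SD, n = 3). A limma test of the dye effect, added after seeing the data, called 0 of the 8 members and 0.181% of 12724 probes. Its adjusted p was 0.104 for Irf5 and 0.116 for Irf2. Of the members, 3 had an unadjusted p under 0.05, these genes and Irf7 (dye effect 0.34 ± 0.12, limma adjusted p = 0.0977). Opposite signs of this kind were seen for 7.21% of the probes tested, and their cause was not tested.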

How the results depend on the processing

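Over 15 alternatives, Irf7, Irf9 and Irf1 were called higher each time, at 2.67 to 2.98, 0.91 to 1.02 and 0.61 to 0.79, and Irf8 in 14 (0.47 to 0.71), its call lost with zeros kept. With zeros kept, Irf1 passed narrowly over probes (limma, adjusted p = 0.0492, and 0.0269 over genes). The count of members called was 4, and 3 with zeros kept. Irf5, Irf2, Irf4 and Irf3 passed under none of them (limma, lowest adjusted p = 0.12, 0.645, 0.307 and 0.247 over probes). Irf2 turned to -0.0060 when arrays were scaled to 1 spread. Leaving out 1 set or 1 array gave -0.073 to 0.073 for Irf2, -0.17 to 0.050 for Irf4, -0.21 to -0.046 for Irf3 and -0.0069 to 0.27 for Irf5, which turned sign without the Cy3 array of set 2. An array left out leaves its set with 1 dye orientation. Of the pathway genes, 53 rose with zeros kept against 60, and leaving out 1 set or 1 array gave 54 to 58 higher and 2 to 4 lower, the 2 without set 3. Calls over all probes numbered 3443, against 1407 with zeros kept and 1991 to 3062 with an array or set left out, and calls over genes 2542, against 1576 and 1578 to 2267.

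With the set number as a replicate block (6 arrays, dye term, random block, consensus correlation 0.35), 4 members were called, and 60 pathway genes were higher and 4 lower. With no replicate block, the counts were 4, 61 and 5, and 4293 probes were called. Deviations of same-numbered arrays correlated at 0.53, 0.077 and 0.17 in sets 1, 2 and 3. Whether the numbers pair the arrays of every set was not tested. Of the 6 arrays, 5 correlated best with the array of their own number, and the Cy3 array of set 2 did not. Members had no ratio listed at 0, and signal over background was not analysed here.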
